A study of Mus musculus with 12 samples.

Results

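The genes described here encode the proteasome and the factors that assemble and regulate it. They were taken as every gene whose symbol is Psm, a letter from a to g, a number and at most 1 further letter, which gave 49 of the 55487 rows in the tables. Pseudogene symbols such as Psma5-ps and the recombination gene Psmc3ip lie outside that pattern. The measurement was RNA-seq of polyadenylated RNA in the mouse erythroid line G1E-ER4, whose parent cells lack functional Gata1 and into which a fusion of GATA1 with the ligand-binding part of the estrogen receptor was introduced. The line is a single clone. All cultures received 100 nM β-estradiol, which starts maturation, and were harvested at 24 h. The groups, with 3 libraries each, were cells given 50 µM DTPA to lower zinc, cells given 50 µM DFO to lower iron, cells given 0.2 mM SA, and control cells with no further agent. SA served to inhibit ALAD, an enzyme of heme synthesis. The treatment protocol names DFO for that group, while the titles and treatment tags name SA, and the titles were followed. The libraries of a group are called biological replicates in the titles, and whether they were separate cultures is not stated further, so p-values measure the spread between these libraries, which may be technical in part.

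The proteasome degrades proteins that carry ubiquitin chains. Its barrel-shaped core particle has outer alpha rings, which gate the entrance, and inner beta rings, which hold the catalytic sites. A regulatory particle sits on the core: its base unfolds the substrate with a ring of ATPases, and its lid removes the ubiquitin. Interferon and immune cells exchange the catalytic subunits for inducible ones, which form the immunoproteasome. Dedicated chaperones build the core and the base and then leave. Maturing red cells use this system while they remove most of their proteins and organelles. In mammals the transcription factor NRF1, encoded by Nfe2l1, raises proteasome genes through antioxidant response elements when proteasome activity falls short.

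Depth was similar in all libraries, at 19851612 to 24335763 reads recovered from the TPM values, and a single read on 1 kb of exon corresponded to 0.124 to 0.160 TPM. TPM is a level per length of transcript, scaled to the same total in every library. Globin, ribosomal protein and mitochondrially encoded genes together took 24.7% to 25.4% of that total with DTPA and 18.2% to 18.8% in the other libraries, control included. Across the 11920 genes tested, the median difference of log2(TPM + 1) was -0.11 for DTPA against control, and 0.05 for both DFO and SA against control. Median-of-ratios scaling moved the DTPA median to -0.004. Erythroid markers other than Epb42 reached at least 43.4 TPM in every library, and Epb42 lay between 2.40 and 6.74 TPM. With DTPA 7 of the 10 were called lower and 2 higher, beside 42.1% and 23.5% of all tested genes. Median-of-ratios scaling gave 5 lower and 3 higher. Their summed levels were 41418 to 43119 TPM with DTPA, 27792 to 29749 TPM with DFO, 22534 to 23130 TPM with SA and 37032 to 40260 TPM in control. Most of these sums came from the globin genes Hba-a1 and Hbb-bs. With DTPA Slc4a1, the anion exchanger of red cells, stood at 0.0634 times its control level. Gata1 stood at 0.423 times and Epor, the erythropoietin receptor, at 0.521 times. Other markers went the other way, with Hbb-bs at 1.36 times, Alas2 at 1.32 times and Klf1 at 1.04 times. The Gata1 row may include reads of the introduced fusion, which was not tested. Megakaryocyte markers summed to 36.5 to 45.8 TPM in DTPA libraries against 8.23 to 9.34 TPM in control, with 3 of the 4 tested called higher and 2 of 7 at 0 in every library. Mast and myeloid markers reached at most 3.54 TPM and lymphoid markers 2.04 TPM in any DTPA library, against at most 0.502 and 0.757 TPM in control, and 4 of 10 and 5 of 7 of them were at 0 in every library. The part of these shifts in the values below was not tested. In bulk RNA, fewer cells of a type and less RNA per cell cannot be told apart.

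Of the 49 genes, 45 reached 1 TPM in at least 3 libraries and were tested. The 4 others were Psma8, the alpha subunit of testis, Psmb11, the thymus subunit, and the immunoproteasome subunits Psmb8 and Psmb9. Psma8 had at most 2 reads in a library. Psmb11 and Psmb8 were listed at 0 in all 12 libraries, where 3 reads would have been worth up to 0.1002 TPM for Psmb11 and 0.142 TPM for Psmb8. Differences below are of log2(TPM + 1) with the standard error, from limma over all tested genes, and a gene is called where its Benjamini-Hochberg adjusted p is below 0.05. The 49 genes were picked by symbol pattern alone, but earlier results of these data were known when the genes were chosen.

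Start regions were read from the RefSeq promoter windows of the GRCm38.p6 assembly, the same build as mm10, which hold 250 bases before to 50 bases after a gene's start. Windows were found for 41 of the 49 genes. Those of 4 genes are shown, because these genes mark the ends of the response to DTPA described below: Psmd9 fell furthest of all, Psmc4 fell furthest of the constitutive subunits, Psmb5 differed least of the catalytic subunits and Psmg4 rose furthest. Each runs 5′ to 3′ on the gene's strand and ends before the first annotated exon base in its window. Capitals mark matches to the antioxidant response element TGACNNNGC in Psmd9 and Psmb5, and to the metal response element TGCACNC or TGCGCNC in Psmc4 and Psmg4. The metal element is the site of MTF1, a zinc-sensing transcription factor.
Psmd9, chr5:123227940-123228189, plus strand: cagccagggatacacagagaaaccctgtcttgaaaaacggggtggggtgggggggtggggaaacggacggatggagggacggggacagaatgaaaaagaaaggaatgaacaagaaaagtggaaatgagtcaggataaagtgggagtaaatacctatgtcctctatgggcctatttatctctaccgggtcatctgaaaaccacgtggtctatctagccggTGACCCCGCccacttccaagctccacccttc
Psmc4, chr7:28050102-28050342, minus strand: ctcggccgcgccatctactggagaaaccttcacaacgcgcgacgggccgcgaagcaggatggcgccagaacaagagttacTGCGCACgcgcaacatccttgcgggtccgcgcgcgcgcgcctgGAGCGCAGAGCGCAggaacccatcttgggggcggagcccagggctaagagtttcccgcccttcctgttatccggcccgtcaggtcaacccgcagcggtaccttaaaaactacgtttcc
Psmb5, chr14:54618023-54618245, minus strand: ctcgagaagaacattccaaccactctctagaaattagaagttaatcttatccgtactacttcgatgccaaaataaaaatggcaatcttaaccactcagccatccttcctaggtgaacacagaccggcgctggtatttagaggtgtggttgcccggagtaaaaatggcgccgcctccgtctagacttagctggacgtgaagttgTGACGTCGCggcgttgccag
Psmg4, chr13:34162714-34162963, plus strand: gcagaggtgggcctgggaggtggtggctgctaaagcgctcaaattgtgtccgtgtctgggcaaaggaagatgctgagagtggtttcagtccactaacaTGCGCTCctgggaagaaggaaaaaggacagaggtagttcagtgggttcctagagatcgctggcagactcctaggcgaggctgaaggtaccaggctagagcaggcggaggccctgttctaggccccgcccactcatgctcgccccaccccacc

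DTPA lowered the transcripts of nearly the whole proteasome. Against control, 40 of the 45 tested genes were called lower and 3 higher, while 42.1% of all tested genes were called lower and 23.5% higher. All 31 constitutive subunits of the core and regulatory particles were called lower, with differences between -0.72 and -0.11 and a median of -0.46. For the same 40 genes counted by library, every DTPA library lay below every control library, which held for 44.1% of all genes. The median difference of the 45 genes was -0.43. Among all 9263 genes with at least 5 TPM 50.1% were called lower. Median-of-ratios scaling left 34 of the 45 genes lower and 4 higher, beside 33.1% and 31.7% of all genes, and the median was -0.31. The subunits no longer called with that scaling were Psmb1, Psmb5, Psmd4, Psmd6 and Psmd11, of which Psmd4 turned to 0.02 (limma adjusted p = 0.497).

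**Figure D1:**
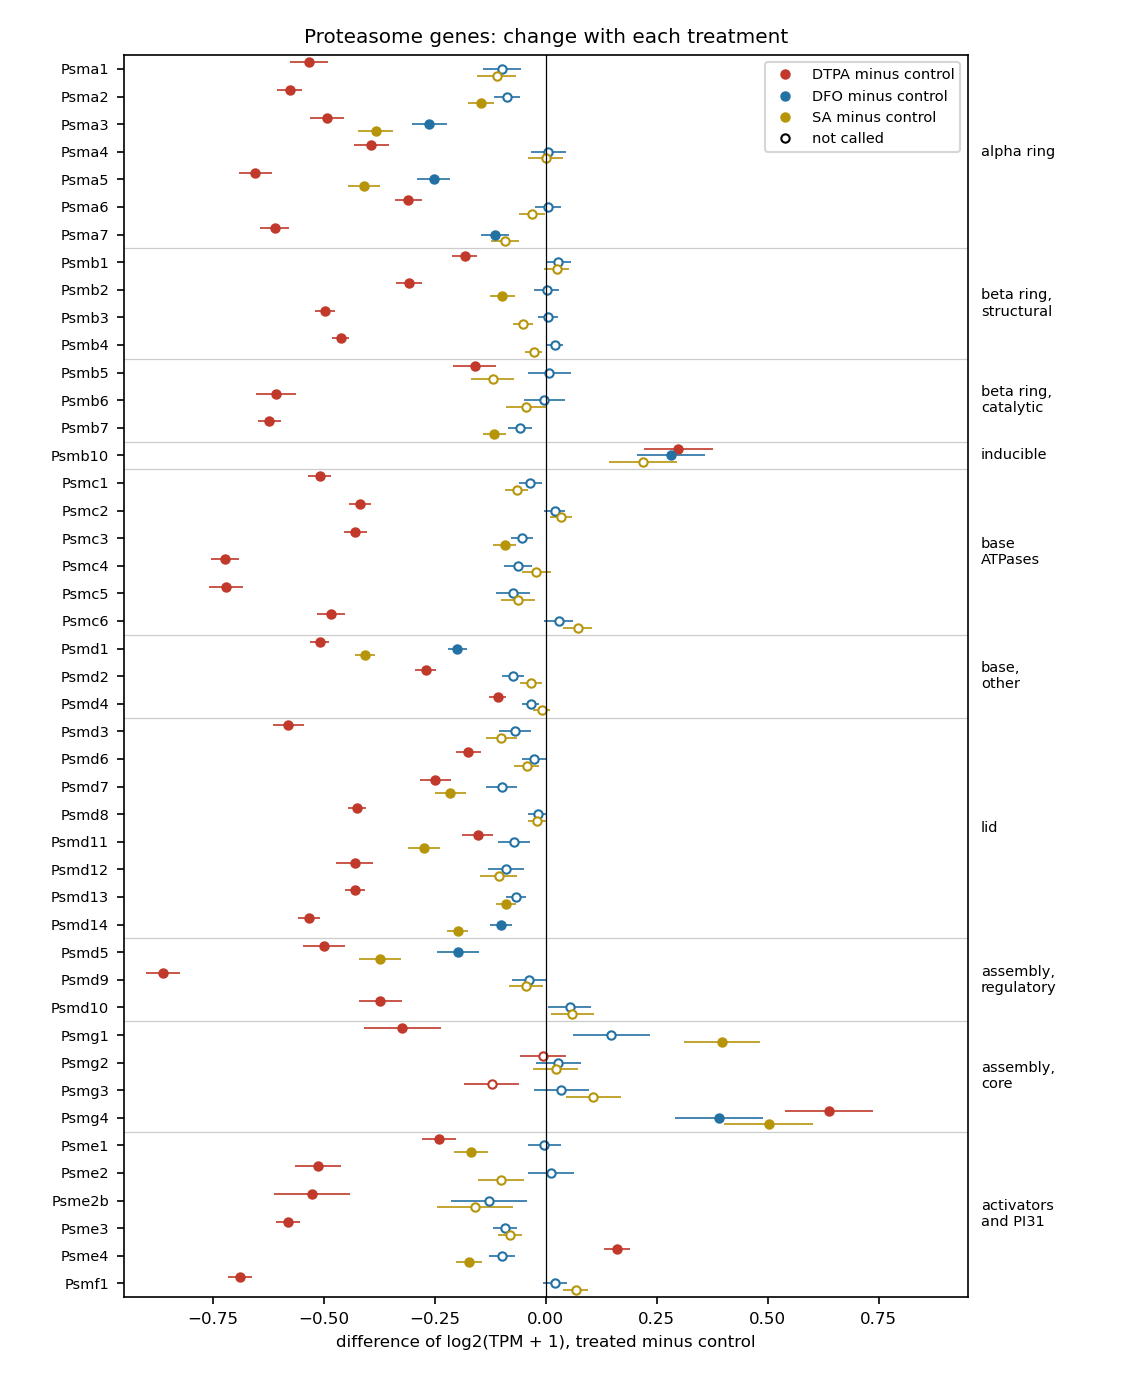
Difference of log2(TPM + 1) between each treatment and control for the 45 tested proteasome genes, grouped by role; bars are standard errors, filled points are called (limma, adjusted p below 0.05) and open points are not. The DTPA points lie left of 0 for all 31 constitutive subunits on this TPM scale (Psmd4 turns to 0.02 under median-of-ratios scaling), while Psmb10, Psmg4 and Psme4 lie to the right.

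In the alpha ring, 7 of 7 genes fell with DTPA, with a median difference of -0.53. Psma5 lies at chr3:108256926-108279974 (mm10, as are all positions here) and had 252, 241 and 258 TPM in DTPA libraries against 406, 388 and 389 TPM in control. All DTPA values were below all control values, and the difference was -0.65 ± 0.0369 (SE; limma adjusted p = 1.89e-08). The smallest fall of the ring was that of Psma6, at -0.31 ± 0.0301 (limma adjusted p = 2.41e-06). Psma5 has a near-identical processed copy, Psma5-ps, listed at 24.1 to 26.7 TPM with DTPA and 38.3 to 46.1 TPM in control, and how reads were divided between them is uncertain.

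The 4 structural beta subunits, Psmb1 to Psmb4, also fell with DTPA, by a median of -0.38. The 3 catalytic subunits differed from control by unlike amounts. Psmb6, the site that cuts after acidic residues, had 145, 149.8 and 150.04 TPM in DTPA libraries against 235, 215 and 231 TPM in control, a difference of -0.61 ± 0.0459 (limma adjusted p = 2.57e-07). Psmb7, the site that cuts after basic residues, had 105, 100.5 and 99.5 TPM in DTPA libraries against 156, 156 and 158 TPM in control, a difference of -0.62 ± 0.0265 (limma adjusted p = 1.59e-09). For both genes the groups stood well apart. Psmb5, the site that cuts after hydrophobic residues and the main target of proteasome inhibitor drugs, had 159, 155 and 151 TPM in DTPA libraries against 184, 165 and 171 TPM in control. The groups did not overlap, but the gap was narrow, and the difference was -0.16 ± 0.0490 (limma adjusted p = 0.0131). That call was lost without control replicate 1 (limma adjusted p = 0.0586), under median-of-ratios scaling (limma adjusted p = 0.573), under trimmed-mean scaling (limma adjusted p = 0.458), without globin, ribosomal protein and mitochondrial genes (limma adjusted p = 0.486) and with voom (limma adjusted p = 0.120). Psmb5 lies at chr14:54614119-54618022, Psmb6 at chr11:70525367-70527858 and Psmb7 at chr2:38588036-38644087, where its exons overlap those of Nek6 on the other strand.

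All 6 ATPases of the base fell with DTPA, by a median of -0.50. Psmc4 and Psmc5, 2 ATPases of the unfolding ring, fell furthest of the 31 constitutive subunits. Psmc4, at chr7:28041707-28050101, had 160.1, 171 and 162 TPM in DTPA libraries against 275, 269 and 271 TPM in control, a difference of -0.72 ± 0.0321 (limma adjusted p = 2.30e-09). Psmc5, at chr11:106256154-106263120, had 195, 199 and 205 TPM in DTPA libraries against 341, 310.2 and 338 TPM in control, a difference of -0.72 ± 0.0381 (limma adjusted p = 1.08e-08). Neither gene overlapped between the groups. In control cells these genes stood beside the other ATPases, which ranged up to the 379 TPM of Psmc3. With DTPA the coefficient of variation of the level over the 6 ATPases was 21.1% ± 1.46, against 15.9% ± 1.02 in control (SD over libraries, n = 3 each).

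Of the 3 other base subunits, Psmd4 and Psmd2 had smaller differences than any ATPase. Psmd4, a ubiquitin receptor of the base, was the most abundant of the 31 subunits in every group, at 652, 651 and 635 TPM in DTPA libraries against 704, 685 and 699.6 TPM in control. Its difference of -0.11 ± 0.0189 was the smallest of the 31 (limma adjusted p = 0.000329), and under median-of-ratios scaling it was 0.02 and not called. Psmd2, which docks shuttle factors, differed by -0.27 ± 0.0243 (limma adjusted p = 1.21e-06). Psmd1, a large scaffold subunit of the base, differed by -0.51 ± 0.0218 (limma adjusted p = 1.63e-09). In the lid, 8 of 8 genes fell, by between -0.58 for Psmd3 and -0.15 for Psmd11. Psmd14, the deubiquitinating enzyme of the lid, differed by -0.53 ± 0.0240 (limma adjusted p = 2.57e-09).

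The chaperones of the regulatory particle fell with it. Psmd9, which helps to place the ATPases, had the largest fall of all 45 genes: 33.0, 35.0 and 35.6 TPM in DTPA libraries against 66.1, 62.0 and 62.8 TPM in control. Its DTPA level was 0.543 times the control level, and the difference was -0.86 ± 0.0386 (limma adjusted p = 2.44e-09). Psmd9 is annotated at chr5:123169413-123250131, the RefSeq start shown above lies inside that longer gene model, and 25.5% of its exon length is shared with Gm26745 on the other strand. The library kit keeps strand, and whether the counting used it is not given in the sources used here. Psmd5, another base chaperone, differed by -0.50 ± 0.0472 (limma adjusted p = 1.88e-06), and Psmd10, the chaperone also known as gankyrin, by -0.37 ± 0.0486 (limma adjusted p = 3.10e-05).

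The chaperones of the core did not move as a group. Psmg4, which pairs with Psmg3 to build the alpha ring, had 26.6, 22.9 and 24.2 TPM in DTPA libraries against 16.6, 13.7 and 16.0 TPM in control. All DTPA values were higher, at 1.59 times the control mean, and the difference was 0.64 ± 0.0997 (limma adjusted p = 0.000137). Psmg4, at chr13:34162964-34178173, has only 555 bases of annotated exon, and its lowest library held 58 reads. Psmg1, which pairs with Psmg2, had 14.7, 16.0 and 13.6 TPM in DTPA libraries against 17.5, 20.7 and 18.0 TPM in control. Its difference of -0.32 ± 0.0859 was called (limma adjusted p = 0.00595), but was -0.20 under median-of-ratios scaling and not called (limma adjusted p = 0.0561). Psmg2 averaged 55.2 ± 1.62 TPM with DTPA and 55.5 ± 3.85 TPM in control (SD, n = 3 each), a difference of -0.01 ± 0.0515 that was not called (limma adjusted p = 0.927). Under median-of-ratios scaling Psmg2 was called higher at 0.12 (limma adjusted p = 0.0378). Psmg3 was not called either, at -0.12 ± 0.0618 (limma adjusted p = 0.108).

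The activators that cap the core in place of the regulatory particle split. Psme4 encodes a large nuclear activator known for the breakdown of acetylated histones. It had 334, 341 and 346 TPM in DTPA libraries against 315, 294 and 304 TPM in control, and was called higher by 0.16 ± 0.0300 (limma adjusted p = 0.000544). Psme3, another nuclear activator, had 120.0, 119 and 117 TPM in DTPA libraries against 181, 172 and 181 TPM in control, a difference of -0.58 ± 0.0270 (limma adjusted p = 3.44e-09). Both genes separated the groups completely, in opposite directions. Psme1 and Psme2, the 2 chains of the interferon-inducible activator, were both lower. Psme1 had 128, 123 and 127 TPM in DTPA libraries against 157, 145 and 146 TPM in control, a difference of -0.24 ± 0.0375 (limma adjusted p = 0.000138). Psme2 had 79.6, 88.7 and 86.5 TPM in DTPA libraries against 125, 122 and 118 TPM in control, a difference of -0.51 ± 0.0512 (limma adjusted p = 3.02e-06). Psme2 and Psme2b are near-identical copies, so the division of reads between them is uncertain. Psmf1 encodes PI31, which binds the core and inhibits it in vitro. It had 75.3, 79.0 and 80.3 TPM in DTPA libraries against 127, 128 and 125 TPM in control, a difference of -0.69 ± 0.0276 (limma adjusted p = 9.05e-10).

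**Figure D2:**
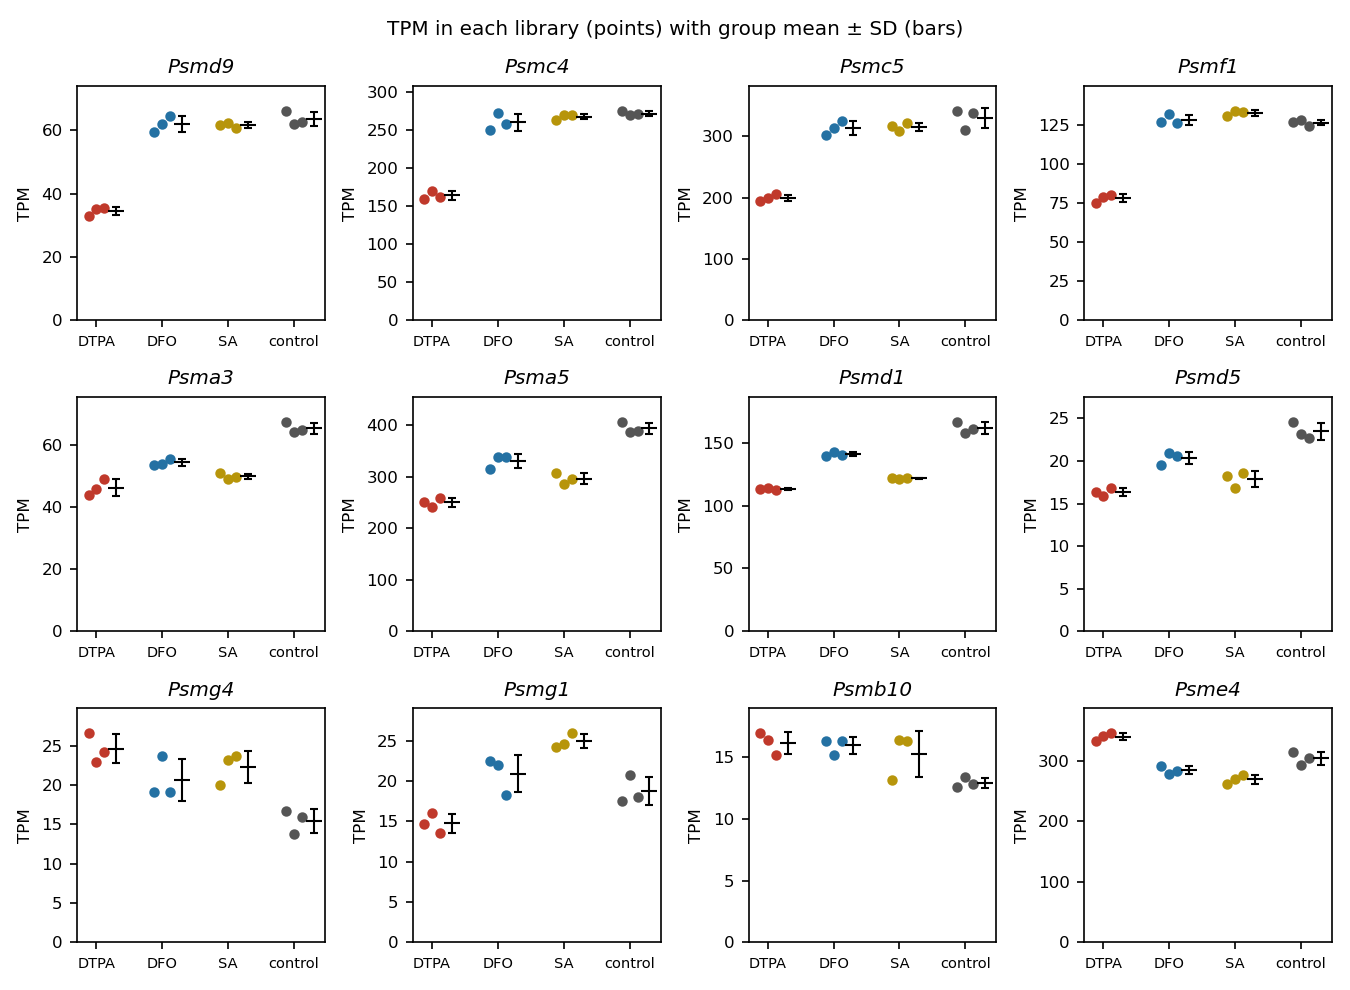
TPM of 12 proteasome genes in each of the 12 libraries; points are libraries and bars are group means ± SD, with all axes starting at 0. For Psmd9, Psmc4, Psmc5 and Psmf1 the DTPA libraries lie below all other libraries, while for Psma3, Psma5, Psmd1 and Psmd5 the libraries of all 3 agents lie below control.

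DFO changed few of these genes. Against control, 6 of 45 were called lower and 2 higher, while 2.28% of all tested genes were called lower and 8.39% higher. Among the 31 constitutive subunits 5 were lower. Every DFO library lay below every control library for 14 of the 45 genes, against 6.47% of all genes. Under median-of-ratios scaling 19 genes were called lower and none higher, beside 5.48% and 3.52% of all genes, and 13 were called lower with voom on recovered reads. The count of lower genes was 3 without control replicate 1 or without DFO replicate 3, and 10 without control replicate 2.

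Psma3, an alpha ring subunit at chr12:70974621-70996347, had 53.5, 54.0 and 55.7 TPM with DFO against 67.4, 64.1 and 64.8 TPM in control, a difference of -0.26 ± 0.0390 (limma adjusted p = 0.00198). Psma5 had 316, 338 and 339 TPM with DFO against the control values of 406, 388 and 389 TPM, a difference of -0.25 ± 0.0369 (limma adjusted p = 0.00177). Psmd1, at chr1:86064387-86139151, had 139, 142 and 140.2 TPM with DFO against 166, 157 and 161 TPM in control, a difference of -0.20 ± 0.0218 (limma adjusted p = 0.000310). The groups did not overlap for any of these genes. Psmd5, at chr2:34849734-34874968, had 19.5, 20.9 and 20.6 TPM with DFO against 24.6, 23.2 and 22.7 TPM in control, also without overlap. Its difference of -0.20 ± 0.0472 (limma adjusted p = 0.0222) was not called when only the 6 libraries compared were fitted (limma adjusted p = 0.0551), nor without control replicate 1 (0.0773), control replicate 2 (0.0522), DFO replicate 1 (0.0813) or DFO replicate 3 (0.0535, all limma adjusted p). The other 2 genes called lower were Psma7 at -0.11 (limma adjusted p = 0.0464) and Psmd14 at -0.10 (limma adjusted p = 0.0221), and neither call held with only the 6 libraries compared. Both were lost without control replicate 1 or 3 or without DFO replicate 2 or 3, and Psma7 also without DFO replicate 1, with limma adjusted p between 0.0524 and 0.148.

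The constitutive catalytic subunits and the activators did not pass the threshold with DFO on the TPM scale. Psmb5 had 162, 185 and 177 TPM with DFO against 184, 165 and 171 TPM in control, Psmb6 had 229, 235 and 214 TPM against 235, 215 and 231 TPM, and both overlapped. Psmb7 had 149.9, 148 and 154 TPM with DFO against 156, 156 and 158 TPM in control, below it in every library, with a difference of -0.06 ± 0.0265 (limma adjusted p = 0.199). Psme4 had 291, 278 and 283 TPM with DFO against 315, 294 and 304 TPM in control, a difference of -0.10 ± 0.0300 (limma adjusted p = 0.0604). It too was lower in every library, and it was called under median-of-ratios scaling (limma adjusted p = 0.00219). Psme1, Psme2, Psme2b and Psme3 differed by between -0.13 and 0.01. Of these Psme3, with 171, 164 and 166 TPM with DFO against 181, 172 and 181 TPM in control, was lower in every library (limma adjusted p = 0.0539) and was called lower under median-of-ratios scaling (-0.15, limma adjusted p = 0.00412) and trimmed-mean scaling (limma adjusted p = 0.00433).

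The 2 genes called higher with DFO were Psmg4 and Psmb10, and neither call was firm. Psmg4 had 19.1, 23.6 and 19.0 TPM with DFO against 16.6, 13.7 and 16.0 TPM in control, a difference of 0.39 ± 0.0997 (limma adjusted p = 0.0305). DFO replicate 2 was the highest of its group, and without it the adjusted p from limma was 0.0959. Without control replicate 2 it was 0.104, without control replicate 3 0.0598, and with voom 0.137. Psmb10 had 16.3, 15.2 and 16.4 TPM with DFO against 12.6, 13.4 and 12.8 TPM in control, a difference of 0.28 ± 0.0766 (limma adjusted p = 0.0393). Leaving out any 1 of these 6 libraries ended that call, with limma adjusted p between 0.0580 and 0.108. Under median-of-ratios scaling the limma adjusted p was 0.0648 for Psmg4 and 0.0996 for Psmb10, under trimmed-mean scaling 0.0596 and 0.0959, and without a filter on low genes 0.0719 and 0.0818. Psmg4 was also not called when only the 6 libraries compared were fitted (limma adjusted p = 0.0741), nor Psmb10 with voom (limma adjusted p = 0.0809).

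SA lowered genes of every layer of the particle. Against control, 14 of 45 were called lower and 2 higher, while 6.74% of all tested genes were called lower and 15.4% higher. Of the 31 constitutive subunits 11 were called lower: 3 of the alpha ring, Psmb2 and Psmb7 of the beta ring, the ATPase Psmc3, the scaffold Psmd1 and 4 of the lid. Every SA library lay below every control library for 20 genes, against 11.7% of all genes. Under median-of-ratios scaling 30 were called lower and 2 higher, beside 13.9% and 9.29% of all genes, and the median difference was -0.13, against -0.07 on the TPM scale.

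Psma5 had 308, 287 and 296 TPM with SA against 406, 388 and 389 TPM in control, a difference of -0.41 ± 0.0369 (limma adjusted p = 1.76e-05). Psmd1 had 122, 121 and 122 TPM with SA against 166, 157 and 161 TPM in control, a difference of -0.41 ± 0.0218 (limma adjusted p = 4.56e-07). Psma3 had 50.9, 49.2 and 49.8 TPM with SA against 67.4, 64.1 and 64.8 TPM in control, a difference of -0.38 ± 0.0390 (limma adjusted p = 4.41e-05). In each of them the SA values lay far below control and close to one another. Psmd5 had 18.3, 16.9 and 18.6 TPM with SA against 24.6, 23.2 and 22.7 TPM in control, a difference of -0.37 ± 0.0472 (limma adjusted p = 0.000211). Psmd11, a lid subunit, had 60.9, 60.0 and 62.2 TPM with SA against 75.04, 71.5 and 75.5 TPM in control, a difference of -0.27 ± 0.0353 (limma adjusted p = 0.000235). Psme4 had 262, 270.2 and 277 TPM with SA against 315, 294 and 304 TPM in control and was called lower by -0.17 ± 0.0300 (limma adjusted p = 0.00179), without overlap. Psme1 was lower as well, at -0.17 ± 0.0375 (limma adjusted p = 0.00805). Psmb7 had 146, 148 and 141 TPM with SA against 156, 156 and 158 TPM in control, a difference of -0.12 ± 0.0265 (limma adjusted p = 0.00944). Psmb5 and Psmb6 were not called, at -0.12 ± 0.0490 (limma adjusted p = 0.109) and -0.04 ± 0.0459 (limma adjusted p = 0.557). All SA libraries lay below all control libraries for Psmb5, at 161, 161 and 157 TPM with SA against 184, 165 and 171 TPM in control, and it was called lower under median-of-ratios scaling (-0.18, limma adjusted p = 0.0282) and trimmed-mean scaling (limma adjusted p = 0.0334). Psme2 (limma adjusted p = 0.0282) and Psme3 (limma adjusted p = 0.00205), not called on the TPM scale, were also called lower under median-of-ratios scaling.

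The rises with SA were in the core chaperones. Psmg4 had 19.9, 23.2 and 23.7 TPM with SA against 16.6, 13.7 and 16.0 TPM in control, a difference of 0.50 ± 0.0997 (limma adjusted p = 0.00411). Psmg1, at chr16:95979933-95990960, had 24.3, 24.6 and 25.9 TPM with SA against 17.5, 20.7 and 18.0 TPM in control, a difference of 0.40 ± 0.0859 (limma adjusted p = 0.00683). Both were above control in all 3 SA libraries. Psmb10 had 13.2, 16.4 and 16.3 TPM with SA against 12.6, 13.4 and 12.8 TPM in control, and SA replicate 1 lay within the control range. Its difference of 0.22 ± 0.0766 was not called (limma adjusted p = 0.0642), and without SA replicate 1 it was 0.32 (limma adjusted p = 0.00368).

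The 3 comparisons with control share the control libraries, so the treatments were also compared with each other. DTPA was lower than DFO for 40 of 45 genes and higher for 2, while 46.4% and 19.5% of all genes were called lower and higher. The 2 higher genes were Psme4, by 0.26 ± 0.0300 (limma adjusted p = 1.10e-05), and Psmg4, by 0.25 ± 0.0997 (limma adjusted p = 0.0463). The libraries overlapped for Psmg4, and its call was lost without a filter, with only the 6 libraries compared, and without DTPA replicate 1 or 3 or DFO replicate 1 or 3, with limma adjusted p between 0.0554 and 0.156. Median-of-ratios scaling turned the difference of Psmb5, Psmd4, Psmd6, Psmd7, Psmd11, Psmg2 and Psmg3 from below to above 0, and Psmd4, Psmd11 and Psmg2 were then called higher. DTPA was lower than SA for 37 of 45 genes and higher for 2, Psme4 and Psmd11, while 47% and 20.1% of all genes were called lower and higher. Median-of-ratios scaling gave 27 lower and 10 higher in that comparison, beside 33% and 31.5% of all genes. That scaling turned Psma3, Psmb5, Psmd1, Psmd4, Psmd5, Psmd6, Psmd7, Psme1 and Psmg2 from below to above 0, and called 6 of them higher: Psmb5, Psmd1, Psmd4, Psmd7, Psme1 and Psmg2. Psmd11 was higher by 0.12 ± 0.0353 (limma adjusted p = 0.00985), with 68.0, 64.5 and 66.8 TPM in DTPA libraries against 60.9, 60.0 and 62.2 TPM with SA. Psmg1 was lower with DTPA than with SA by -0.72 ± 0.0859 (limma adjusted p = 1.44e-05). DFO was higher than SA for 7 of 45 genes and lower for none, while 7.21% and 6.31% of all genes were called higher and lower. At an unadjusted p below 0.05 in limma, fitted across all genes, only Psmg1 was lower with DFO than with SA, at -0.25, and with voom on recovered reads 0 genes were called lower. The 7 genes were Psma5, Psmb2, Psmd1, Psmd5, Psmd11, Psmd14 and Psme1, led by Psmd1 at 0.21 ± 0.0218 (limma adjusted p = 0.000103) and Psmd11 at 0.20 ± 0.0353 (limma adjusted p = 0.00312).

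The immunoproteasome stayed a small fraction of the catalytic transcripts. Psmb10, the inducible partner of Psmb7, lies at chr8:105935735-105938444. It had 16.97, 16.4 and 15.2 TPM in DTPA libraries against 12.6, 13.4 and 12.8 TPM in control, a difference of 0.30 ± 0.0766 (limma adjusted p = 0.00469), with no overlap. As a share of Psmb10 plus Psmb7 in TPM, a ratio within a library that no scaling alters, Psmb10 made up 13.95%, 14.02% and 13.2% with DTPA, 9.83%, 9.34% and 9.59% with DFO, 8.27%, 10.0% and 10.4% with SA, and 7.47%, 7.90% and 7.51% in control. All libraries of the 3 treatments were above all control libraries. No test was run on these shares. Psmb9, the inducible partner of Psmb6, held 1 to 8 reads in a library and between 0.0418 and 0.350 TPM, with means of 0.135 ± 0.116 with DTPA, 0.270 ± 0.0748 with DFO, 0.184 ± 0.138 with SA and 0.137 ± 0.0547 in control (SD, n = 3 each). The DFO libraries, at 0.201, 0.350 and 0.259 TPM, lay above the control libraries, at 0.0753, 0.179 and 0.156 TPM, and the DTPA and SA libraries overlapped with control. In reads these were 5, 8 and 7 with DFO and 2, 5 and 4 in control, so the groups touched. With so few reads the gene was not tested. Psmb8, the inducible partner of Psmb5, is listed at 0 throughout.

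**Figure D3:**
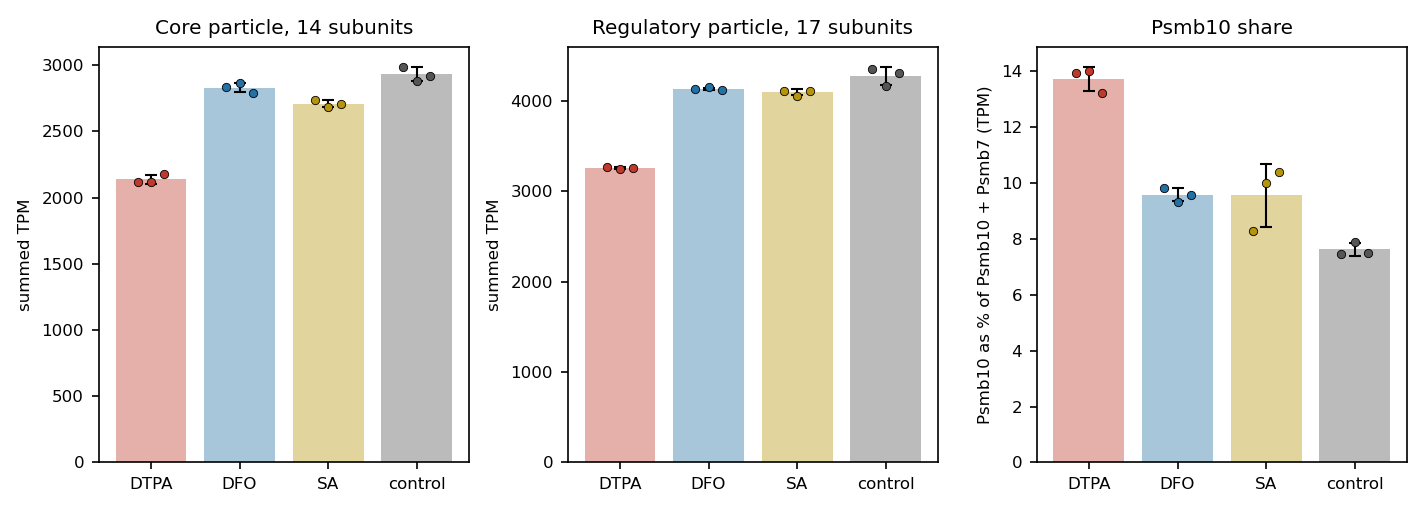
Summed TPM of the 14 core subunits (left) and the 17 subunits of the regulatory particle (middle), and Psmb10 as a percentage of Psmb10 plus Psmb7 (right); bars are group means ± SD, points are the 3 libraries of each group and axes start at 0. The DTPA sums lie below all others, and the DTPA share of Psmb10 above all others.

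Summed over the 31 constitutive subunits, the level was 5395 ± 32.2 TPM with DTPA, 6965 ± 49.6 TPM with DFO, 6803 ± 57.1 TPM with SA and 7209 ± 149 TPM in control (SD, n = 3 each). The DTPA sum was 0.748 times the control sum, with 0.966 for DFO and 0.944 for SA. These ratios hold on the TPM scale. Median-of-ratios scaling raised the DTPA sums and lowered the DFO and SA sums, with values given in the last section. The median-of-ratios factors of the control libraries were 1.014, 0.990 and 1.000. The 14 core subunits summed to 2139 ± 33.1 TPM with DTPA, 2832 ± 35.3 TPM with DFO, 2708 ± 26.7 TPM with SA and 2930 ± 53.1 TPM in control. The 17 subunits of the regulatory particle summed to 3256 ± 11.6 TPM with DTPA, 4133 ± 14.9 TPM with DFO, 4095 ± 33.6 TPM with SA and 4278 ± 100.2 TPM in control. The sum of the 4 core chaperones, by contrast, was 117 ± 0.841 TPM with DTPA, 124 ± 4.46 TPM with DFO, 130.4 ± 2.45 TPM with SA and 115 ± 3.32 TPM in control. The SA and DFO libraries lay above the control libraries in that last sum, and the DTPA and control libraries overlapped. For DFO the gap was narrow, with a lowest sum of 118.8 TPM against a highest of 118.3 TPM in control.

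Levels differed widely between subunits that the finished particle holds in equal number. In control, Psmd4 at 696 ± 10.3 TPM, Psmb4 at 444 ± 7.97 TPM and Psma5 at 394 ± 10.4 TPM were highest, and Psma3 at 65.4 ± 1.75 TPM was lowest. These levels rest on the annotated exon length, which is a union over isoforms and can make a gene with unused exons look low. The order of the 31 subunits was nearly the same in all groups: across subunits, Spearman's rho with the control order was 0.978 for DTPA, 0.993 for DFO and 0.986 for SA, and no subunit moved by more than 5 places. These are correlations across genes of shared length and composition, given as a description. The coefficient of variation of the level over the 31 subunits was 66.4% ± 0.877 with DTPA, 59.3% ± 0.174 with DFO, 60.9% ± 0.429 with SA and 58.3% ± 0.545 in control. Over the core subunits alone it was 56.5% ± 0.304 with DTPA and 56.2% ± 1.21 in control. Over the regulatory particle it was 70.6% ± 0.792 with DTPA and 59.5% ± 0.310 in control. Within the activators, Psme4 made up 74.1% ± 0.631 of Psme4 plus Psme3 with DTPA, 63.0% ± 0.131 with DFO, 61.6% ± 0.975 with SA and 63.1% ± 0.359 in control.

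**Figure D4:**
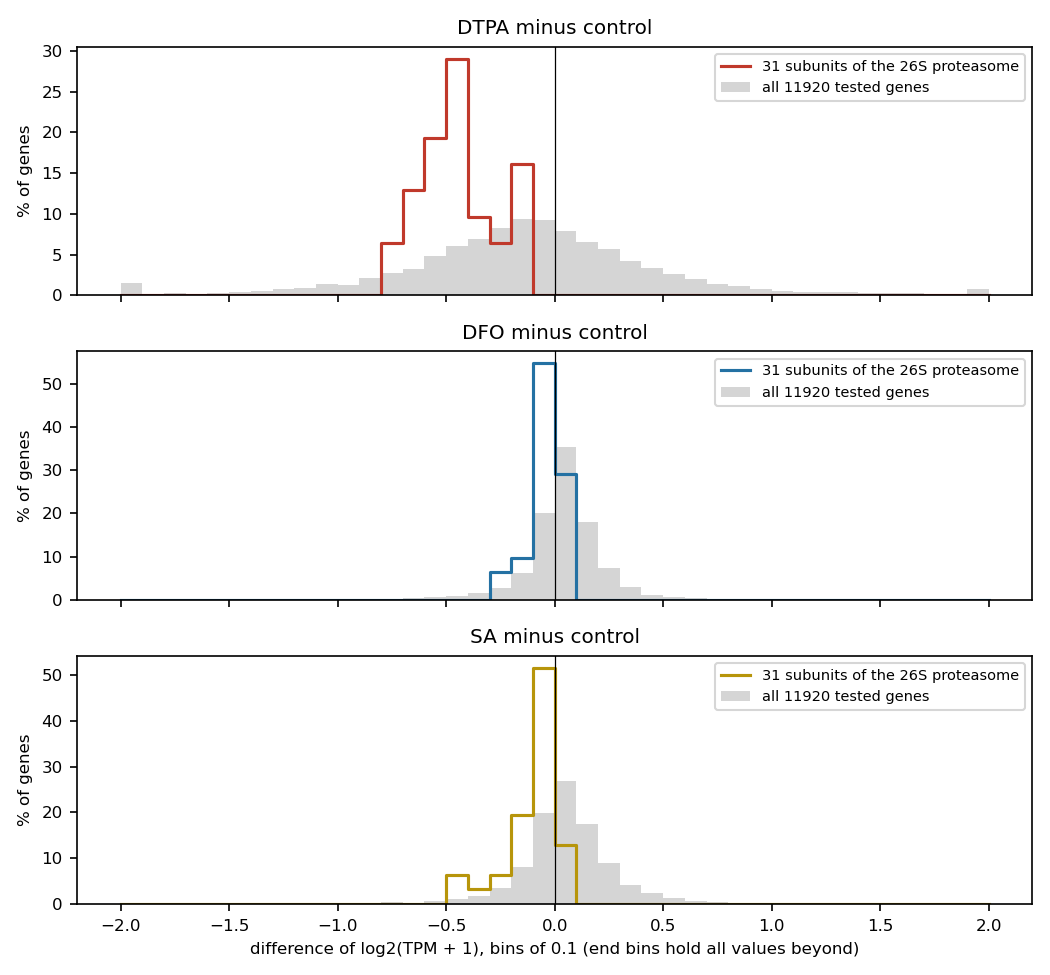
Distribution of the difference of log2(TPM + 1) for the 31 constitutive subunits (line) and all 11920 tested genes (grey), as percentages in bins of 0.1, for DTPA, DFO and SA against control. With DTPA all 31 subunits lie below 0 on this TPM scale (all but Psmd4 under median-of-ratios scaling), and with DFO and SA most lie within 0.1 of 0 on the TPM scale, though not under median-of-ratios scaling.

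Of 4 tested proteasome genes that carry other names, 3 were called lower with DTPA, beside 42.1% of all tested genes. Pomp, the chaperone that completes the core, fell by 0.53, and Sem1, the smallest lid subunit, fell by 0.88 on the log2 scale. Akirin2, which brings proteasomes into the nucleus, fell by 0.53 as well. Adrm1, a ubiquitin receptor, averaged 93.4 ± 3.54 TPM with DTPA and 94.7 ± 1.67 TPM in control (SD, n = 3 each) and was not called, although median-of-ratios scaling called it higher at 0.10. None of these 4 was called with DFO or SA by limma on the TPM scale, and none had an unadjusted p below 0.05 with DFO. Under median-of-ratios scaling Adrm1 and Sem1 were called lower with SA.

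The counts in this and the next lists stand beside 42.1% lower and 23.5% higher calls among all tested genes with DTPA, 2.28% and 8.39% with DFO, and 6.74% and 15.4% with SA. Among 7 enzymes and partners bound to the proteasome, 6 were called lower and 1 higher with DTPA, 2 lower with DFO and 5 lower with SA. Under median-of-ratios scaling 5 were lower and 1 higher with DTPA, 3 lower with DFO and 5 lower with SA, beside 33.1% lower and 31.7% higher among all genes with DTPA, 5.48% and 3.52% with DFO, and 13.9% and 9.29% with SA. Uchl5, a deubiquitinase of the base, differed by -0.61 with DTPA, and Usp14, the other one, by -0.24. Txnl1, a thioredoxin on the regulatory particle, was called lower with all 3 agents, at -0.58 with DTPA, -0.13 with DFO and -0.24 with SA. Ecpas, a scaffold that clamps core and regulatory particle together, was called higher with DTPA at 0.15 and lower with SA at -0.19. Of 6 tested shuttle factors, which carry ubiquitinated proteins to the proteasome, 4 were lower and 1 higher with DTPA, 1 was lower with DFO and none was called with SA by limma, where only Ddi2 had an unadjusted p below 0.05. Under median-of-ratios scaling 4 were lower and 2 higher with DTPA, and 2 were lower with SA. Rad23b was lowest at -0.84 with DTPA, and Ddi2, the protease that activates NRF1, was higher at 0.38.

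The genes that control NRF1 did not move as 1 block. Nfe2l1 itself differed by -0.04 with DTPA, 0.14 with DFO and 0.14 with SA, and was called higher with DFO (limma adjusted p = 0.0212) and SA (limma adjusted p = 0.00866). Under median-of-ratios scaling neither of those calls held, and Nfe2l1 was called higher with DTPA instead (0.08, limma adjusted p = 0.0497). Vcp, the segregase that pulls NRF1 from the endoplasmic reticulum, was called lower at -0.31 with DTPA and -0.35 with SA. In the list of 6, 4 were lower and 1 higher with DTPA, 1 and 1 with DFO, and 3 and 1 with SA. Under median-of-ratios scaling the split was 3 and 3 with DTPA, 2 and 0 with DFO, and 3 and 0 with SA. Of 7 tested genes of antigen processing and interferon, with which immunoproteasome genes are usually induced, 4 were higher and 1 lower with DTPA, 2 higher with DFO and 1 lower with SA. H2-D1, a class I antigen gene, rose by 1.33 with DTPA. Tap2, a peptide transporter beside the immunoproteasome genes, was higher at 0.28 with DTPA and 0.20 with DFO. Irf1 was not called in any comparison with control. B2m averaged 1590 ± 12.5 TPM with DTPA, below the 1705 ± 39.9 TPM of control (SD, n = 3 each). H2-K1, another class I gene, did not exceed 0.0841 TPM in any library. Median-of-ratios scaling gave 4 higher and 0 lower with DTPA, 1 higher with DFO and 2 lower with SA, and Tap2 was no longer called with DFO (0.15, limma adjusted p = 0.125).

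Both motifs were searched on both strands over the whole window, and overlapping matches were kept. The antioxidant element was found in 6 of 41 members (Psmb5, Psmb6, Psmc6, Psmd9, Psmd12 and Psme4), or 14.6%, against 13.99% of all 27025 genes with a window, and the 6 differed by between -0.86 and 0.16 with DTPA. The metal element was found in 17 of 41 members, or 41.5%, against 28.2% of all genes with a window. Psmd9, which fell furthest with DTPA, holds none in its window, and Psmg4, which rose furthest, holds 1 before its start, at -152, and 1 after it. Psmc4, Psmc5 and Psmf1, the next furthest falls with DTPA, hold the metal element too, so genes with it moved in both directions. In Psmc4 the matches begin at -170, -127 and -120, the antioxidant match of Psmd9 at -31 and that of Psmb5 at -47. A match describes letters in a window and is no evidence of binding.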

How the data were processed

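Total RNA was isolated with a Direct-zol kit and made into stranded polyadenylated RNA libraries with the TruSeq kit, per the labels' protocols. For each library the authors deposited a gene table of TPM values. Trimmomatic 0.33, FastQC, HISAT2 2.1.0, featureCounts and edgeR are named in the submitters' processing notes, with the mm10 genome; how these tools were set and which annotation was counted is not given in the sources used here. TPM is relative to a library's total, so a rise of abundant genes lowers the others.

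From the TPM values, the 11920 genes that reached 1 TPM in 3 or more of the 12 libraries were tested with limma 3.58.1 in R 4.3.3 on log2(TPM + 1), which understates the change of low genes. One mean per group was fitted over all 12 libraries with a trended empirical Bayes variance, and p-values were adjusted by Benjamini-Hochberg over all tested genes in each comparison, with a threshold of 0.05. Reads were recovered from TPM and the exon lengths of GENCODE M21, and 98.7% to 99.0% of values up to 200 reads came out whole within 0.1 read. Same-numbered libraries did not deviate together over 18 pairs (r between -0.0430 and 0.0534), so the numbers were not treated as pairs. Replicates differed by 2.04 to 5.61 times counting noise (chi-square per degree of freedom), and no 2 libraries held identical values. Coordinates are those of GENCODE M21 on mm10. Named genes were Psmb5 to Psmb10, Psme1 to Psme4 and for each treatment, the 4 called genes that rose most and the 4 that fell most, given a mean of at least 5 TPM; others are named as members of their role. The genes, gene lists and tests were chosen with earlier results of these data known. The alternatives were another pseudocount, filter, scaling, set of libraries, a replicate block, robust variance, each library left out and voom on the recovered reads, the last chosen after seeing the data. The list of genes of ubiquitin and its activation is not reported here.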

Additional observations from a re-analysis of the deposited data

Results flagged for a closer look

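Psme4 and Psmg1 stood out because the same gene was called in opposite directions against the shared control libraries and the treatments then differed when compared directly by limma. Psme4 was called higher with DTPA and lower with SA, and the direct difference, DTPA minus SA, was 0.33 ± 0.0300 on the log2 scale (limma adjusted p = 1.18e-06), with all 3 DTPA libraries above all 3 SA libraries. Psmg1 was called lower with DTPA and higher with SA, and the direct difference was -0.72 ± 0.0859 (limma adjusted p = 1.44e-05), with all 3 DTPA libraries below all 3 SA libraries. The fall of Psmg1 with DTPA missed the threshold under median-of-ratios scaling, while its direct difference from SA did not.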

How the results depend on the processing

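Genes called lower with DFO were 19 under median-of-ratios scaling, 15 under trimmed-mean scaling, 13 with voom, 3 with only the 6 libraries compared, and 3 to 10 with each library left out, against 6. Genes called higher with DFO were 0 without a filter, under both scalings, with the replicate block and with voom, 1 with only the 6 libraries compared, and 0 to 1 with each library left out, against 2. Genes called lower with SA were 30 and 29 under the 2 scalings, and 11 to 17 with each library left out, against 14. Genes higher with DTPA than with DFO were 5 and 4 under the scalings, 1 without a filter, with 6 libraries and with the replicate block, and 1 to 2 with each library left out. Genes higher with DTPA than with SA were 10 under both scalings and 4 without globin, ribosomal protein and mitochondrial genes. Genes higher with DFO than with SA were 3 to 6 with each library left out, against 7. In that comparison the count was 3 without DFO replicate 2, SA replicate 2 or SA replicate 3. Differences called in at least 1 setting changed sign as follows. For DTPA against control the values were 0.0172 for Psmd4 and 0.12 for Psmg2 under median-of-ratios scaling. The value was 0.00568 for Psmd4 under trimmed-mean scaling. The value was 0.0109 for Psmd4 without globin, ribosomal protein and mitochondrial genes. For DTPA against DFO the values were 0.0127 for Psmb5, 0.0976 for Psmd11, 0.11 for Psmd4, 0.0323 for Psmd6, 0.0318 for Psmd7, 0.14 for Psmg2 and 0.0183 for Psmg3 under median-of-ratios scaling. They were 0.0905 for Psmd4, 0.0155 for Psmd6, 0.0149 for Psmd7, 0.13 for Psmg2 and 0.00192 for Psmg3 under trimmed-mean scaling. The value was 0.0512 for Psmd4 without globin, ribosomal protein and mitochondrial genes. The value was 0.0223 for Psmd4 with voom. For DTPA against SA the values were 0.0728 for Psma3, 0.14 for Psmb5, 0.0823 for Psmd1, 0.0867 for Psmd4, 0.0496 for Psmd5, 0.0530 for Psmd6, 0.15 for Psmd7, 0.11 for Psme1 and 0.15 for Psmg2 under median-of-ratios scaling. They were 0.0570 for Psma3, 0.13 for Psmb5, 0.0664 for Psmd1, 0.0706 for Psmd4, 0.0344 for Psmd5, 0.0371 for Psmd6, 0.14 for Psmd7, 0.0968 for Psme1 and 0.14 for Psmg2 under trimmed-mean scaling. They were 0.00853 for Psma3, 0.0173 for Psmd1 and 0.0212 for Psmd4 without globin, ribosomal protein and mitochondrial genes. The cause was not tested. Under median-of-ratios scaling the core sum was 2330 with DTPA, 2719 with DFO and 2593 with SA, and the regulatory sum 3547, 3969 and 3921. With 1 TPM added, the share of Psmb8 in Psmb8 plus Psmb5 was 0.637% with DTPA, 0.568% with DFO, 0.619% with SA and 0.571% in control, that of Psmb9 in Psmb9 plus Psmb6 0.755%, 0.556%, 0.531% and 0.498%, and that of Psmb10 14.3% with DTPA, 10.1% with DFO and 8.12% in control. Psmb8 was at 0 throughout, so its share here reflects only the added TPM and the Psmb5 level. Psmb9, with at most 0.350 TPM in a library, also lay below the added 1 TPM. The replicate block called Psme3 with DFO (limma adjusted p = 0.0394) and SA (0.0367) and lost Psmg4 (0.0613) and Psmb10 (0.0652) with DFO. Depth limits Psmb9 and Psma8, with at most 8 and 2 reads in a library.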
